A study of Mus musculus with 36 samples.

Results

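The albumin gene family of the mouse liver was followed over 12 ages. The 4 members, Alb, Afp, Afm and Gc, were taken by gene symbol from a table of 21889 genes, and all 4 were among the 11149 genes that passed the filter for testing, an age mean of 1 FPKM or more (fragments mapped, set against transcript length and library size) at 1 or more of the ages. Livers came from male C57BL/6 mice (C57BL/6J in the study's methods), untreated and of no stated mutation, with 3 mice per age. The ages were Day -2, which is before birth, Day 0, taken before suckling began, Days 1, 3, 5 and 10, Days 15 and 20 of late suckling, and Days 25, 30, 45 and 60. Mice for the ages after weaning were weaned between the Day 20 and Day 25 samples. The 36 mice were drawn from several litters that the labels do not name, so p-values of tests on single mice measure the spread between these mice. The permutation tests compare age means and do not measure it. RNA was selected for poly-A tails and read by RNA-Seq.

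Albumin, the product of Alb, is the main protein of adult plasma, where it holds water in the circulation and carries fatty acids, bilirubin, hormones and drugs. Alpha-fetoprotein, the product of Afp, is its fetal counterpart, made by yolk sac and fetal liver, silenced in the liver after birth, and made again by regenerating liver and by many liver cancers. Afamin, the product of Afm, binds vitamin E, and the vitamin D-binding protein, the product of Gc, carries vitamin D metabolites and scavenges actin released from damaged cells.

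The 4 genes lie on 1 chromosome. On the NCBI37/mm9 build, Alb (ENSMUSG00000029368.9) spans chr5:90889915-90905629 on the plus strand with 15 exons, followed by Afp (ENSMUSG00000054932.3, chr5:90919740-90937933, 15 exons) and Afm (ENSMUSG00000029369.10, chr5:90947958-90982569, 10 exons in its longest transcript) in the same direction. The gap from Alb to Afp is 14.11 kb and the gap from Afp to Afm is 10.024 kb. Gc (ENSMUSG00000035540.7, chr5:89846549-89886790, 13 exons) lies on the minus strand, 1003.124 kb from Alb, so it is linked to the other three but not next to them.

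The 250 bases before each transcription start are shown because they place a shared motif in front of genes whose mRNA then ran different courses. They are from RefSeq (GRCm38.p6, another build than that of the expression table) and are written in the direction of transcription, for chr5:90460620-90460869 (Alb), chr5:90490464-90490713 (Afp), chr5:90518699-90518948 (Afm) and the minus strand of chr5:89457899-89458148 (Gc). Capitals mark each match to GTTAAT, any base, then ATTAAC, the motif bound by HNF1, a hepatocyte transcription factor. Both strands were searched from 250 bases before to 50 after the start, and up to 2 of the 13 letters were allowed to differ.
Alb: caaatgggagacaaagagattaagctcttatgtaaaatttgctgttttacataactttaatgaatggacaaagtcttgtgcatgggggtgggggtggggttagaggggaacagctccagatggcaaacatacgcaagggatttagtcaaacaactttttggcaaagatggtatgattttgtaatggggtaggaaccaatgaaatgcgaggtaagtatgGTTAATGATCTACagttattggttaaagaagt
Afp: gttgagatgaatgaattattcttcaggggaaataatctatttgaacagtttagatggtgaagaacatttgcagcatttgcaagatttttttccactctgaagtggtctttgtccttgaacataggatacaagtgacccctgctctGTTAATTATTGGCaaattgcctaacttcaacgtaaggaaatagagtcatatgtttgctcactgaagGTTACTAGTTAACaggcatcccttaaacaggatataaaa
Afm: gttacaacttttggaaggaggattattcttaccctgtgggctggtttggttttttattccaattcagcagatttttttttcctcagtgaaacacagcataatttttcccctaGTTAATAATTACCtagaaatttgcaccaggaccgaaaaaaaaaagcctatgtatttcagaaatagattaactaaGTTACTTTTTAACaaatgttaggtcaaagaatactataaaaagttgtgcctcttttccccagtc
Gc: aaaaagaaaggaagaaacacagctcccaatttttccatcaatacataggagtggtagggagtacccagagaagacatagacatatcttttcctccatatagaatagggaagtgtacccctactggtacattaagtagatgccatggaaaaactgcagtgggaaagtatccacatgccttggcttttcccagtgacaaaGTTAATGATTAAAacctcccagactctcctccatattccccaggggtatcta

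Each of the 4 promoters held 1 or more matches, which, since the motif is its own reverse complement, count for both strands. The match in Alb (GTTAATGATCTAC) had 2 mismatches and lay at bases -32 to -20 from the start, and Afp held a pair with 2 mismatches each, at -105 to -93 (GTTAATTATTGGC) and at -39 to -27 (GTTACTAGTTAAC). Afm held a match with 1 mismatch at -138 to -126 (GTTAATAATTACC) and another with 2 mismatches at -64 to -52 (GTTACTTTTTAAC), and the match in Gc (GTTAATGATTAAA) had 1 mismatch and lay at -52 to -40. A match of this quality was present in 446 of 32851 RefSeq promoters of the same length (1.36%) and in 120 of 10146 promoters of tested genes (1.18%). Of 20 genes of a list of other plasma proteins with a promoter in the table, 4 held one. A match is a description of letters and was not tested as a binding site.

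The libraries held an estimated 73.3 to 94.2 fragments in units of 1000000 (median 81.4), and the FPKM of a mouse added up to between 353712 and 450597. Across the 36 pairs of mice of the same age, r of log2(FPKM + 1) over the tested genes had a median of 0.978 and a lowest value of 0.952. Liver markers were present at every age, with a summed level of 8 hepatocyte markers between 5079 and 37701 FPKM. Globin mRNA made up 36.2% to 43.1% of summed FPKM at Day -2 and 0.163% to 0.174% at Day 60. A set of 4 libraries had the most transcripts of other organs. Replicate 1 of Day 0 had 1169 FPKM of 6 skeletal muscle markers, against at most 77.6 in any other library. Replicate 1 of Day 60 and replicate 2 of Day 20 had 18786 and 5899 FPKM of 6 pancreatic acinar markers, against 4306, 4066 and 3661 in replicate 3 of Day 0, replicate 1 of Day 45 and replicate 3 of Day 15, and less in the others. Replicate 2 of Day 1 had 2.75 FPKM of the kidney endocytic receptor Lrp2, against 0.130 or less in any other library. The limit between these 4 libraries and the rest was set after their values were seen, so counts were also made without the 4 and without 7, which adds the 3 next in pancreatic markers. Pancreatic markers also differed by age. Every library of Days 0, 1, 3 and 15 had 168.9 FPKM or more, against at most 7.54 at Day -2 and 7.82 at Day 25. Leaving out 4 or 7 libraries does not remove this difference between ages.

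Alb mRNA rose in a large step between Day -2 and Day 0, dipped at Days 3 and 5, and reached its highest level at Day 15. No age was sampled between Day -2 and Day 0, so the data do not show whether a change in this interval came before or during birth. In what follows, a step or rise at birth means this interval, for every gene. In replicates 1, 2 and 3, Alb was at 3073, 3861 and 2883 FPKM at Day -2. It was at 29577, 27582 and 19857 FPKM at Day 0. Every newborn was thus far above every fetus, without overlap. At Day 1 Alb was at 21970.1, 23328 and 22283 FPKM, with the 3 mice close together. At Day 3 it was at 17651, 11703 and 12456 FPKM and at Day 5 at 17968, 12813 and 13091 FPKM, with every mouse of both ages below every mouse of Days 0 and 1. At Day 10 it was at 39709.7, 31912 and 31439.6 FPKM, and all 3 mice were above those of all younger ages.

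The highest Alb levels were those of Day 15, with 43652, 49104 and 48398 FPKM in the 3 mice. Day 20 had 39833, 37384 and 39908 FPKM and Day 25 had 43414, 34419 and 41013 FPKM. Each Day 15 mouse was above every mouse of the other 11 ages. Day 30 had 34485, 35192 and 32718 FPKM, Day 45 had 38030.3, 34002 and 29401 FPKM, and Day 60 had 28642, 28499 and 32564 FPKM. In the order of age means, the ranges of neighbours overlapped from Day 25 down to Day 1, and Day 15 (mean 47051 ± 2965, SD, n = 3), the pair of Days 3 and 5, and Day -2 (3272 ± 518, SD, n = 3) stood apart. The Day 15 mean was 14.4 times that of Day -2. From Day 15 on, Alb was the gene with the highest FPKM of the whole table in each of the 18 mice.

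Against Day 60, Alb was lower at Day -2 by a log2(FPKM + 1) difference of -3.20 (SE 0.16, limma, adjusted p = 7.45e-17), at Day 1 by -0.41 (0.0275), at Day 3 by -1.12 (4.94e-07) and at Day 5 by -1.05 (1.61e-06), and it was higher at Day 15 by 0.65 (0.00251), where each value in parentheses after the first is the adjusted p from limma. The other 6 ages did not pass the test. Day 0 differed by -0.24 (95% interval -0.57 to 0.09), and Days 10, 20, 25, 30 and 45 by 0.17 to 0.40. The Day 1 difference did not pass without the 4 libraries that stood apart (-0.46, limma, adjusted p = 0.0665) or the 7 (-0.46, adjusted p = 0.0677), without replicate 1 or 3 of Day 1 or replicate 3 of Day 60 (adjusted p from 0.0558 to 0.0996), or when globins were left out of the scaling (-0.30, adjusted p = 0.152), and with upper quartiles made equal Day 0 passed too (-0.57, adjusted p = 0.00840). Dunnett's comparison within the gene did not call Day 1 either. For reading these counts, the share of all 11149 genes that differed from Day 60 was, in order of age, 75.1% (Day -2), 63.9% (Day 0), 65% (Day 1), 66% (Day 3), 65.4% (Day 5), 46% (Day 10), 27.4% (Day 15), 15.9% (Day 20), 7.42% (Day 25), 3.56% (Day 30) and 0.233% (Day 45).

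Between neighbouring ages, 3 of the 11 steps of Alb passed. These were the rise from Day -2 to Day 0 (log2 difference 2.96, SE 0.16, limma, adjusted p = 8.93e-15, 7.85-fold in mean FPKM), the fall from Day 1 to Day 3 (-0.72, adjusted p = 0.00318, 1.62-fold in mean FPKM) and the rise from Day 5 to Day 10 (1.24, adjusted p = 6.96e-07, 2.35-fold). The difference from Day 10 to Day 15 missed the threshold (0.46, limma, adjusted p = 0.0584) but passed with a filter at 5 FPKM (adjusted p = 0.0469), with equal upper quartiles (0.62, adjusted p = 0.0273), with the replicate number as a block (adjusted p = 0.0352) and without replicate 1 of Day 3, 5 or 10 or replicate 3 of Day 0 (adjusted p from 0.0365 to 0.0458). With no filter on low values, the fall from Day 1 to Day 3 (adjusted p = 0.174) and the Day 1 and Day 15 differences from Day 60 (adjusted p = 0.295 and 0.177) did not pass. The share of all genes that passed at the same steps was 54.6% from Day -2 to Day 0, 31.6% from Day 0 to Day 1, 11.3% from Day 1 to Day 3, 3.2% from Day 3 to Day 5, 36.3% from Day 5 to Day 10 and 12% from Day 10 to Day 15. For the later steps it was 1.99% from Day 15 to Day 20, 7.19% to Day 25, 1.64% to Day 30, 1.03% to Day 45 and 0.233% to Day 60.

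FPKM is a share of the library, and globin mRNA made up 36.2% to 43.1% of summed FPKM at Day -2 and 16.3% to 19.8% at Day 0. When libraries were scaled to a common sum of all genes except the 4 members and the globins, the Alb step at birth was 2.63 (limma, adjusted p = 3.59e-12). The summed hepatocyte markers also moved at birth, from between 5079 and 5927 FPKM to between 18306 and 21173 FPKM. In bulk liver, fewer cells of a type and less RNA per cell cannot be told apart.

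**Figure D1:**
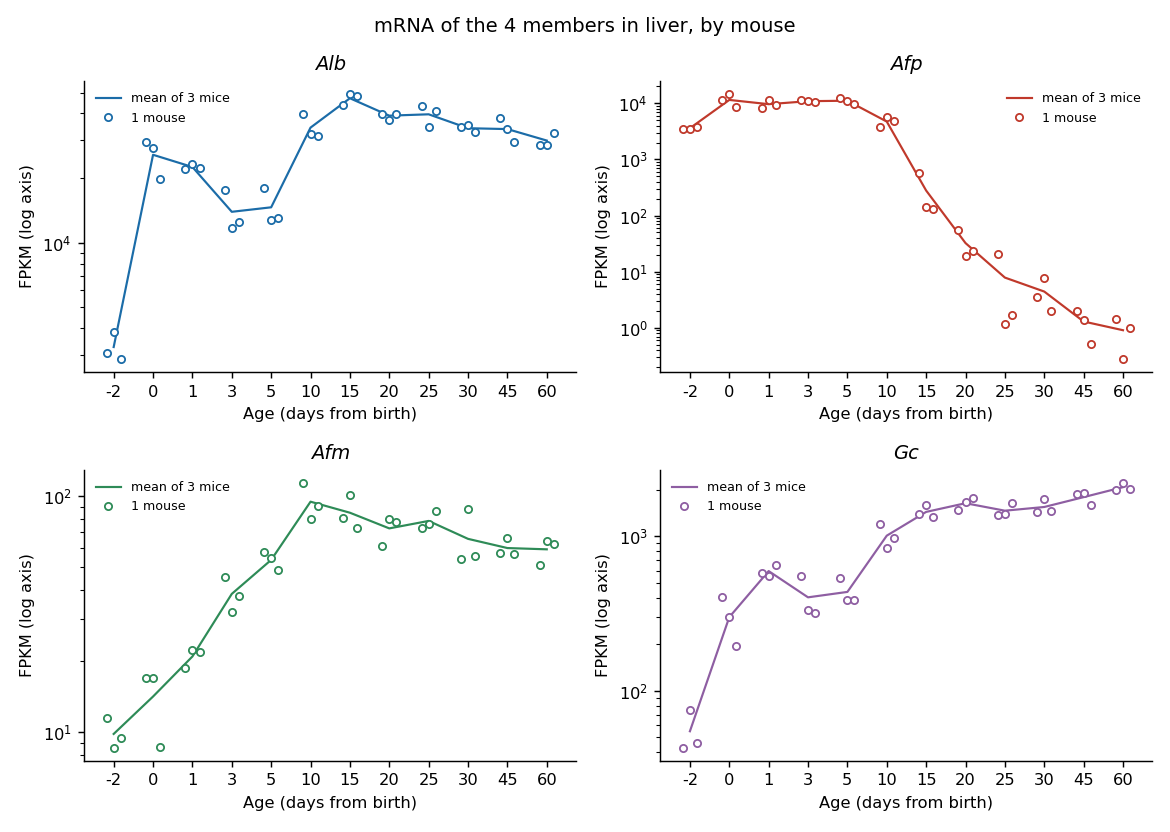
Each panel shows the FPKM (log axis) of 1 member against age (ages in order, not to scale), with 1 open circle per mouse and a line through the mean of 3 mice. Alb climbs from 3272 FPKM at Day -2 to 47051 at Day 15 with a dip at Days 3 and 5, Afp stays between 8132 and 14504 FPKM per mouse from Day 0 to Day 5 and then falls to 0.906 at Day 60, and Afm and Gc rise from 9.84 and 54.8 FPKM at Day -2.

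Afp mRNA was as high as Alb mRNA before birth, rose at birth too, stayed at that level to Day 5, and was then lost over the next weeks. At Day -2 the 3 mice had 3531, 3467 and 3806 FPKM, and at Day 0 they had 11337, 14504 and 8649.8 FPKM. Days 1, 3 and 5 held 8132 to 12572 FPKM in the 9 mice. No step between Day 0 and Day 5 passed, and the ranges of these ages overlapped.

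At Day 10 the 3 mice had 3721, 5639 and 4829 FPKM, all below every mouse of Days 0 to 5. At Day 15 they had 563, 143 and 132 FPKM, and at Day 20 54.8, 19.05 and 23.2 FPKM. Neither age overlapped with the age before it. At Day 25, after weaning, the values were 20.7, 1.19 and 1.69 FPKM, and replicate 1 lay among the mice of Day 20. At Day 30 they were 3.54, 7.79 and 1.95 FPKM, at Day 45 1.99, 1.37 and 0.520 FPKM and at Day 60 1.46, 0.280 and 0.984 FPKM. The mean fell from 11497 ± 2930 FPKM (SD, n = 3) at Day 0 to 0.906 ± 0.592 FPKM at Day 60, 12685-fold. The lowest value after weaning came from an estimated 48.2 fragments, for which counting alone gives an error of 14.4%.

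All 8 ages from Day -2 to Day 20 were above Day 60 in Afp. The log2(FPKM + 1) difference was 10.93 at Day -2 (SE 0.57, limma, adjusted p = 2.19e-16), 12.58 at Day 0, 11.31 at Day 10, 6.91 at Day 15 (adjusted p = 1.04e-10) and 4.03 at Day 20 (adjusted p = 4.45e-06). With a pseudocount of 1, these differences understate the change where FPKM is near or under 1. Days 25, 30 and 45 differed from Day 60 by 1.45 (95% interval 0.28 to 2.62, limma, adjusted p = 0.137), 1.41 (0.24 to 2.58, adjusted p = 0.184) and 0.26 (-0.91 to 1.44, adjusted p = 0.943). Day 25 passed without its replicate 2 (2.05, limma, adjusted p = 0.0393).

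The steps of Afp that passed were the rise at birth (1.64, limma, adjusted p = 0.0172) and 3 falls in a row, from Day 10 to Day 15 (-4.40, adjusted p = 2.93e-06), from Day 15 to Day 20 (-2.88, adjusted p = 0.00448) and from Day 20 to Day 25 (-2.58, adjusted p = 0.00345). In mean FPKM these falls were 16.9-fold, 8.63-fold and 4.12-fold, and each fold rested on single mice. Without replicate 1 of Day 15 the first was 34.4-fold and the second 4.25-fold, and without replicate 1 of Day 20 the second was 13.2-fold and the third 2.69-fold. Without replicate 1 of Day 25 the third was 22.5-fold. From Day 5 to Day 10 the mean was 2.35-fold lower and the mice did not overlap, but the difference missed the threshold (-1.25, SE 0.57, adjusted p = 0.0891). The model holds 1 spread per gene over all ages, so the scatter of mice at other ages enters this SE. Without replicate 1 of Day 25 the difference passed (adjusted p = 0.0212). The rise at birth was 1.46 without replicate 2 of Day 0 (adjusted p = 0.0621) and 1.31 with the scaling that leaves out globins (adjusted p = 0.0543). The fall from Day 15 to Day 20 was -2.20 without replicate 1 of Day 15 (adjusted p = 0.0739) and -2.59 without the 4 libraries that stood apart (adjusted p = 0.0641) and -2.95 without the 7 (adjusted p = 0.0628), where the rise at birth did not pass either (2.01, adjusted p = 0.0765), and that from Day 20 to Day 25 was -1.98 without replicate 2 of Day 25 (adjusted p = 0.0521), all from limma.

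**Figure D2:**
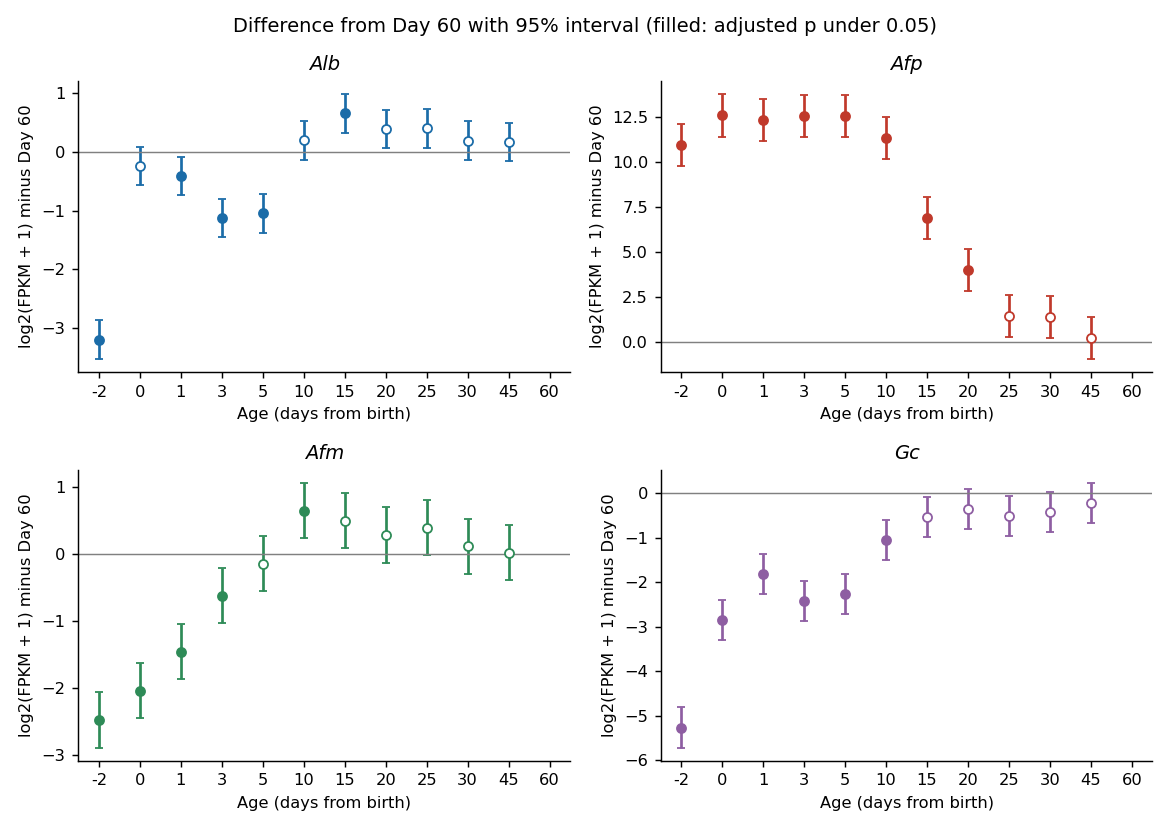
Each panel shows the difference of log2(FPKM + 1) between an age and Day 60 for 1 member, with bars for the 95% interval from limma and filled points for an adjusted p under 0.05 (11 comparisons, 3 mice per age). Afp falls from 12.58 at Day 0 to 4.03 at Day 20 and 1.45 at Day 25, while Alb, Afm and Gc start below Day 60 and Alb (Day 15) and Afm (Day 10) pass above it.

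The exchange of Afp for Alb was read as a ratio of FPKM within each mouse, which does not depend on how its library was scaled. Before birth the ratio of Afp to Alb was 1.15, 0.898 and 1.32 in the 3 mice, so the mRNAs were about equal. It was 0.370 to 0.526 in the 6 mice of Days 0 and 1 and 0.639 to 0.937 in the 6 mice of Days 3 and 5. The ratio was thus higher again at Days 3 and 5, when Alb was low and Afp was not. It was 0.0937 to 0.177 at Day 10, 0.00273 to 0.0129 at Day 15 and 9.82e-06 to 5.08e-05 at Day 60. Taken as a difference of log2(FPKM + 1), the mean ratio of Alb to Afp was 0.59 over the 5 ages to Day 5 and 10.65 over the 7 later ages. These differed by 10.05 (two-sided exact permutation test over 12 age means, p = 0.00253, the smallest it can give, adjusted over 6 pairs of members p = 0.00505). Where Afp is near or under 1 FPKM, this form understates the ratio and depends on scaling. The family was chosen with this switch known, and ages follow one another in time, so this p adds no support.

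Together the 4 members made up 1.502% to 1.74% of summed FPKM at Day -2, and up to 13.4% at Day 15 (36 mice, median 9.01%). At Days 3 and 5 Afp held 2.38% to 3.13% and Alb 2.60% to 4.47%. At Day 60 Alb alone held 6.92% to 8.27%, Gc 0.485% to 0.581% and Afm 0.0123% to 0.0169%. By FPKM, Afp ranked between 4 and 10 among all genes in the 18 mice to Day 10, and between 7141 and 10669 at Day 60.

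**Figure D3:**
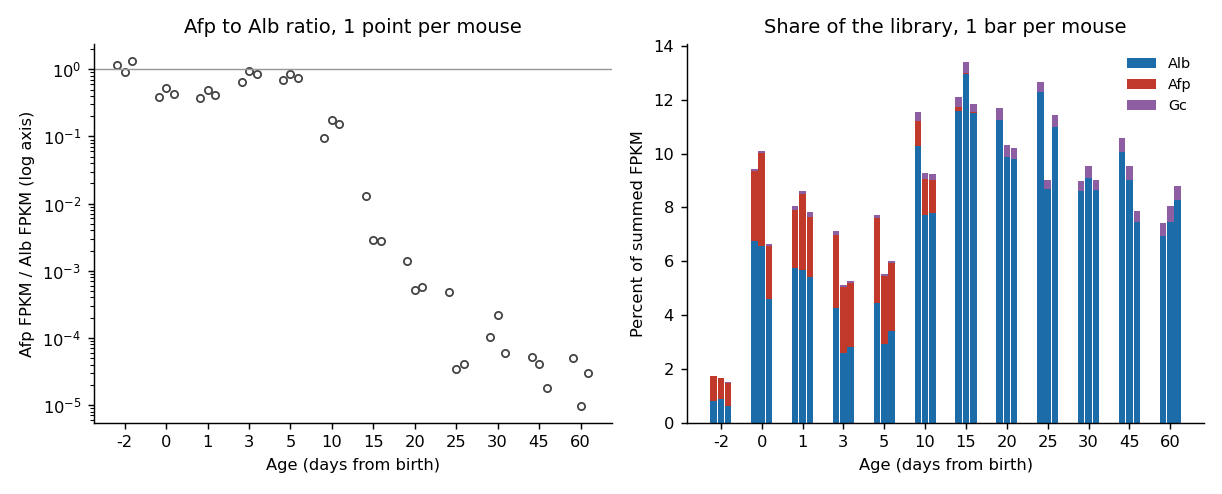
Left, the ratio of Afp to Alb FPKM (log axis), 1 circle per mouse, against age, with a line where the mRNAs are equal. Right, the percent of summed FPKM held by Alb, Afp and Gc, 1 stacked bar per mouse (Afm, at most 0.0293%, would not be visible). The ratio stays between 0.370 and 1.32 to Day 5 and is at most 5.08e-05 in every Day 60 mouse, while the stacked share is highest at Day 15.

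Afm mRNA was the lowest of the family to Day 15, after which Afp was lower, and it rose in several smaller steps. The 3 mice had 11.48, 8.61 and 9.42 FPKM at Day -2, 16.9, 16.9 and 8.69 FPKM at Day 0, and 18.7, 22.3 and 21.8 FPKM at Day 1. One Day 0 mouse, replicate 3, lay within the range of the fetuses. Day 3 had 45.4, 32.2 and 37.8 FPKM, Day 5 had 57.9, 54.4 and 48.4 FPKM, and Day 10 had 113, 79.7 and 90.4 FPKM. From Day 1 to Day 10 each age lay wholly above the age before it. After that the values lay between 51.0 and 100.9 FPKM in 18 mice, and in the order of age means each neighbour overlapped the next from Day 10 at the top down to Day 5. The Day 10 mean (94.5 ± 17.2, SD, n = 3) was 9.60 times the Day -2 mean (9.84 ± 1.48).

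Afm was below Day 60 at Day -2 (log2 difference -2.48, SE 0.20, limma, adjusted p = 5.28e-12), Day 0 (-2.04), Day 1 (-1.46) and Day 3 (-0.62, adjusted p = 0.00841), and above it at Day 10 (0.65, adjusted p = 0.00891). Days 5, 15, 20, 25, 30 and 45 did not pass, with differences of -0.14 to 0.50, although Day 5 passed with equal upper quartiles (-0.76, limma, adjusted p = 0.00214). Day 15 passed without replicate 3 of Day 0 or replicate 2 of Day 30 (limma, adjusted p = 0.0284 and 0.0455). It also passed when globins were left out of the scaling (0.60, adjusted p = 0.0456). The steps that passed were Day 0 to Day 1 (0.58, limma, adjusted p = 0.0287), Day 1 to Day 3 (0.84, adjusted p = 0.00603) and Day 5 to Day 10 (0.80, adjusted p = 0.00283). At birth, where Alb, Afp and Gc rose, the Afm step was 0.44 (limma, adjusted p = 0.0673). It passed without replicate 3 of Day 0 (0.73, adjusted p = 0.00278), without replicate 2 of Day 30 (adjusted p = 0.0486) and with equal upper quartiles (0.68, adjusted p = 0.00766). Without the 7 libraries the step was 0.73. When globins were left out of the scaling it was 0.13 (limma, adjusted p = 0.610). The call at Day 10 rested on replicate 1 of Day 10 (0.51 without it, limma, adjusted p = 0.0658) and on replicate 1 of Day 60, 1 of the libraries with pancreatic transcripts (0.55 without it, adjusted p = 0.0538), and it was 0.48 with equal upper quartiles (adjusted p = 0.0530). The Day 0 to Day 1 step was 0.29 without replicate 3 of Day 0 (adjusted p = 0.292), 0.54 without replicate 2 of Day 1 (adjusted p = 0.0830), 0.55 without replicate 3 of Day 1 (adjusted p = 0.0640), 0.24 without the 7 libraries (adjusted p = 0.607), 0.49 when globins were left out of the scaling (adjusted p = 0.111) and 0.43 with equal upper quartiles (adjusted p = 0.109). The Day 3 difference from Day 60 was -0.50 without replicate 2 of Day 3 (limma, adjusted p = 0.0539).

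Gc mRNA rose at birth, on the next day and from Day 5 to Day 10, and had its highest level at Day 60. At Day -2 the 3 mice had 43.0, 75.1 and 46.3 FPKM, at Day 0 they had 404, 301 and 195 FPKM, and at Day 1 581, 556 and 653 FPKM. None of these 3 ages overlapped. At Day 3 the values were 558, 332 and 320.0 FPKM and at Day 5 536, 386 and 390.1 FPKM. Of these 6 mice only replicate 1 of Day 3 reached the range of Day 1.

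Gc was at 1211, 841 and 984 FPKM at Day 10 and at 1329.9 to 1779.8 FPKM in the 12 mice of Days 15 to 30. It was at 1894, 1899 and 1595 FPKM at Day 45 and at 2008, 2219 and 2025 FPKM at Day 60. Every Day 60 mouse was above every mouse of the other ages, and the Day 60 mean (2084 ± 117, SD, n = 3) was 38.03 times the Day -2 mean (54.8 ± 17.6). Gc was thus the only member with its highest mean at Day 60, whereas the Day 60 means of Alb and Afm were 63.6% and 62.9% of their highest.

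The 6 ages from Day -2 to Day 10 were below Day 60 in Gc, from -5.27 at Day -2 (SE 0.22, limma, adjusted p = 1.10e-18) to -1.06 at Day 10 (adjusted p = 0.000229). Later ages differed by -0.53 (Day 15, 95% interval -0.99 to -0.08, limma, adjusted p = 0.0710) to -0.22 (Day 45) and did not pass. Day 15 passed without replicate 1 or 3 of Day 0 (limma, adjusted p = 0.0486 and 0.0425) or replicate 1 of Day 3 (adjusted p = 0.0470). The steps that passed were the rise at birth (2.42, limma, adjusted p = 7.27e-10), from Day 0 to Day 1 (1.05, adjusted p = 0.000708) and from Day 5 to Day 10 (1.21, adjusted p = 9.12e-05). The Day 1 to Day 3 step, where Alb fell, was -0.61 in Gc (adjusted p = 0.0728), and it passed without replicate 1 of Day 3 (-0.87, limma, adjusted p = 0.0142) or replicate 1 or 3 of Day 0 (adjusted p = 0.0468 and 0.0409), with equal upper quartiles (-0.75, adjusted p = 0.0406) and with equal sums (-0.73, adjusted p = 0.0484).

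Between the mean of the 4 ages from Day 25 to Day 60 and the mean of the 5 ages from Day -2 to Day 5, all 4 members differed, against 85.7% of all genes tested (15.5% higher and 70.2% lower later). The log2(FPKM + 1) difference was 1.39 for Alb (SE 0.08, limma, adjusted p = 2.13e-16), 1.48 for Afm (SE 0.10, adjusted p = 1.26e-14), 2.63 for Gc (SE 0.10, adjusted p = 9.81e-20) and -11.41 for Afp (SE 0.27, adjusted p = 3.77e-25). The median of all genes tested was -0.54, so Alb, Afm, Gc and Afp lay at 1.94, 2.02, 3.17 and -10.86 relative to it. Under a scaling to equal upper quartiles the median was -0.14, 40.6% of the called genes were higher later in place of 18.1%, and the 4 members lay at 2.17, 2.24, 3.41 and -10.75 relative to that median. All 9 erythroid markers tested and all 6 cell cycle markers were lower at the later ages (medians -5.13 and -2.92), and 5 of 8 hepatocyte markers were higher and 1 lower (median 0.76). The part of these changes in the members' values was not tested.

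Ratios between members, as differences of log2(FPKM + 1), were compared between the earlier and the later ages. The log2 ratio of Alb to Gc was 5.56 over the 5 ages to Day 5 and 4.57 over the 7 later ages, a difference of -0.99 (two-sided exact permutation test over 12 age means, p = 0.00505, adjusted p = 0.00758), so Gc gained on Alb. The ratio of Alb to Afm differed by -0.14 (exact permutation p = 0.760, adjusted p = 0.760) and that of Afm to Gc by -0.85 (exact permutation p = 0.0985, adjusted p = 0.118), neither of which passed. This comparison cannot see changes inside a group of ages. From Day -2 to Day 0 mean Alb rose from 3272 to 25672 FPKM and mean Afm from 9.84 to 14.2 FPKM. At Day 5 Alb was down to 14624 FPKM and Afm was up to 53.6 FPKM. The ratios of Afp to Afm (-10.19) and of Afp to Gc (-11.04) differed (exact permutation p = 0.00253, the smallest possible, and adjusted p = 0.00505 for both). The limits given for Alb to Afp hold for these ratios, and that on the order of ages for every pair. Across the 12 age means of log2(FPKM + 1), Pearson's r was 0.917 between Alb and Gc, 0.853 between Afm and Gc and 0.745 between Alb and Afm, and -0.513 to -0.719 between Afp and the others. These r describe 12 ages measured in shared libraries.

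Among 4778 genes that reached 10 FPKM on average at some age, those most like each member over the 12 age means were listed by Pearson's r, as a description. For Alb they were F2 (prothrombin, 0.969), C3 (complement component C3, 0.954) and Bckdha (a subunit of the branched-chain ketoacid dehydrogenase, 0.952). For Days -2, 0, 3 and 20, the means of F2 were 42.9, 293, 289 and 912 FPKM and those of C3 were 73.8, 427, 443 and 1900.1 FPKM. For Gc they were C4b (0.986), C1ra (0.983) and Cfi (0.982), which encode 2 components of the complement cascade and its regulator factor I. The mean of C4b was 1.63 FPKM before birth and 174 FPKM in the oldest mice.

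For Afm the most alike were Slc17a4 (a phosphate and organic anion transporter, 0.986), Inhbc (an inhibin beta subunit, 0.980) and Arhgef19 (0.978). The mean FPKM of Inhbc was 3.49 at Day -2, 85.2 at Day 10 and 32.7 at Day 60, with its peak at the age of the Afm peak. For Afp they were Rcn3 (a calcium-binding protein of the endoplasmic reticulum, 0.991), Mfap2 (a microfibril protein, 0.991) and Maged2 (0.990). Mean Mfap2 was 11.1 FPKM in newborns and 0.146 FPKM at 60 days. These 3 followed the shape of Afp at far lower levels and with smaller falls, since Rcn3 still had 3.35 FPKM at Day 60 after 16.4 FPKM at Day 0.

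Some genes next to the members were lower later, 1 was higher and some did not pass. Of 14 genes in the table that flank Gc or the Alb, Afp and Afm cluster, 9 were tested, and between the later and the earlier ages 1 was higher, 5 were lower and 3 did not pass (median -0.40, against -0.54 for all genes), where 15.5% of all genes were higher and 70.2% lower. Cox18 (a mitochondrial membrane insertase), on the Gc side of Alb, was higher (0.35, limma, adjusted p = 3.62e-06). Ppbp (-5.87) and Pf4 (-5.43), platelet chemokines beyond Afm, fell the most, followed by Dck (deoxycytidine kinase, -2.33), Ankrd17 (-0.68) and Utp3 (-0.40). Slc4a4, a bicarbonate transporter between Gc and its neighbour Dck, differed by 0.14, Rassf6, the first tested gene beyond Afm, by -0.05 and Grsf1 by -0.18, none of which passed. With a common upper quartile 4 neighbours were higher and 3 lower, Ankrd17 was at -0.28 (adjusted p = 0.0791) and Utp3 turned to 0.14 (adjusted p = 0.186), both from limma, and Grsf1 (0.42), Rassf6 (0.30) and Slc4a4 (0.50) joined Cox18 among the higher genes. Of all 11149 genes 8787 were called under that scaling, 40.6% of them higher.

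Transcription factors known to act on the family divided between higher and lower. Of 18 listed transcription factors 16 were tested, of which 7 were higher later, 5 lower and 4 not called (median 0.06), against 15.5% higher and 70.2% lower among all genes. Tef (-0.93) and Dbp (-0.80), PAR bZIP factors that follow the circadian clock, and Cebpb (0.59), a factor of the acute-phase response, were among those that changed the most, with adjusted p from 2.18e-09 to 0.00332 (limma). Among the earlier ages Dbp and Tef were highest at Day 1 (5.72 to 13.2 and 8.34 to 15.5 FPKM). At Day -2 (0.454 to 0.537 and 3.35 to 3.42 FPKM) both were below Day 60 (1.52 to 2.52 and 3.98 to 4.90 FPKM). The methods set a clock time for later ages but tie Days 0 and 1 to birth, and the part of the hour was not tested. With a common upper quartile 9 of the transcription factors were higher and 2 lower. Of all 11149 genes 8787 were called under that scaling, 40.6% of them higher. Zhx2, a repressor of Afp after birth, had a mean of 0.313 FPKM at Day -2, 0.708 at Day 10 and 1.13 at Day 60, and was higher later by 0.34 (SE 0.05, limma, adjusted p = 1.31e-07, positive under every scaling tried). Zbtb20, another repressor of Afp, was under the level needed for testing, with a mean of 0.0710 FPKM at Day -2, and means of 0.153, 0.308 and 0.582 FPKM for Days 10, 20 and 60. Each Zbtb20 value from Day 20 to Day 60, except for 1 mouse of Day 30 at 0.175 FPKM, was above every value of Days -2 to 15.

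The other fetal liver genes of a list of 12 (11 tested) were lower at the later ages in 11 of 11 cases, against 70.2% of all genes, with a median of -4.16. The 4 with the largest changes were H19 (-9.78), an imprinted noncoding RNA, Igf2 (-7.86), the fetal growth factor of the same locus, Cd24a (-6.74), a surface protein of progenitors, and Bex1 (-5.14), beside -11.41 for Afp. Their age means ran differently, and single steps of these genes were not tested. Mean Cd24a was 823 FPKM at Day -2, 314 at Day 0 and 6.87 at Day 15, whereas mean H19 was 1633 and 4311 FPKM before and after birth and still 1725 FPKM at Day 15, when Afp was at 279 FPKM. Bex1 was at 74.2, 32.5 and 1.94 FPKM at Days -2, 0 and 15. The summed erythroid markers had medians of 162074, 76729 and 2886 FPKM at the same ages. The part of blood cells in the values of Cd24a and the other listed genes was not tested.

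Between Days 15 and 30 the mice of 1 age differed widely in Afp, and the other fetal genes are given for the same mice. At Day 15, replicate 1 (563 FPKM of Afp) also had the highest H19 (2401, against 1588 and 1186 FPKM), Igf2 (301, against 103 and 48.2) and Bex1 (3.32, against 1.38 and 1.11). At Day 20, replicate 1 (54.8 FPKM of Afp) had H19 at 344 FPKM, against 200.3 and 252, and Igf2 at 7.23, against 5.62 and 6.36. At Day 25, replicate 1 (20.7 FPKM of Afp) had H19 at 16.9, against 5.89 and 10.6, and Igf2 at 1.03, against 0.131 and 0.172. At Day 30 the highest Afp, in replicate 2 (7.79 FPKM), went with the highest H19 (3.40, against 1.35 and 1.85) and Igf2 (0.431, against 0.295 and 0.193). In these 4 ages, picked after their values were seen, the mouse with the most Afp was thus the one with the most H19 and Igf2. Other ages were mixed. At Day 10 replicate 1 had the least Afp (3721 FPKM) but the most H19 (2378) and Igf2 (568). At Day 45 replicate 1 had the most of each gene. At Day 60 replicate 1 had the most Afp (1.46), and replicate 3 the most H19 (0.696) and Igf2 (0.199). From Day 15 to Day 30 the mouse with the most Afp was also the highest at all 4 ages in 1309 of the 11149 genes tested (11.7%), and at single ages in 42.4% to 58.8% of them. Among them was Nr5a2, a hepatocyte nuclear receptor whose later minus earlier difference was 0.44 (limma, adjusted p = 0.0314), at 4.74 FPKM in that mouse at Day 15 (4.52 and 2.25 in the others), 4.11 at Day 20 (3.79 and 2.85), 3.55 at Day 25 (0.885 and 2.66) and 4.91 at Day 30 (0.589 and 2.33). Cd24a and Bex1 were highest in that mouse at Days 15 and 20, Cd24a alone at Day 25, and neither at Day 30. The pattern was seen in the values and was not tested. The labels give no litter or weight for these mice.

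**Figure D4:**
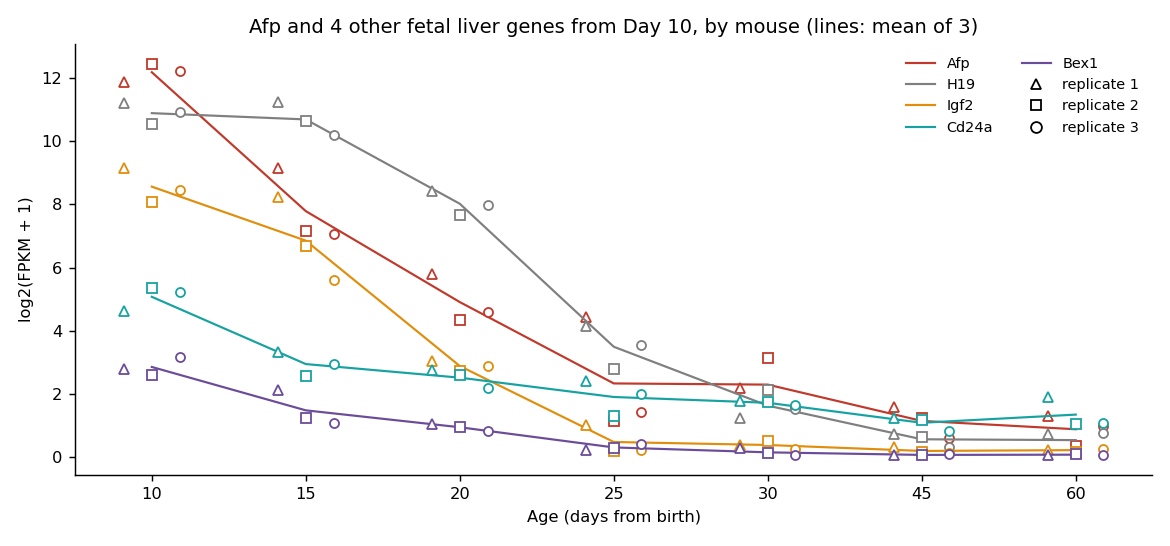
log2(FPKM + 1) of Afp and of H19, Igf2, Cd24a and Bex1 from Day 10 to Day 60 (ages in order, not to scale), with 1 symbol per mouse by replicate number and lines through the mean of 3. Replicate 1 (triangles) has the highest Afp, H19 and Igf2 at Days 15, 20 and 25, and replicate 2 (squares) at Day 30. At Day 10 replicate 1 has the highest H19 and Igf2 but the lowest Afp. Replicate numbers do not link mice of different ages.

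Secreted liver proteins other than the members mostly went the way of Alb and Gc. Of 27 plasma proteins, 18 were higher later (66.7%, against 15.5% of all genes), 6 lower and 3 not called (median 0.78, against -0.54 for all genes). Orm1, an acute-phase glycoprotein, rose the most (8.31), with a mean of 1.05 FPKM at Day 15, 421 at Day 25 and 563 at Day 60. Serpina6, the corticosteroid-binding globulin (2.96), and Hpx, the heme carrier hemopexin (2.53), also rose, and Serpina7, the thyroxine-binding globulin, fell by 2.18 on the log2 scale. Serpina6 did not share the birth step of Alb, with a mean of 796 FPKM at Day -2, 8.41 at Day 0 and 414 at Day 15. Transthyretin (Ttr) differed by 0.39 and transferrin (Trf) by 0.64, beside 1.39 for Alb, and fetuin-A (Ahsg), another major fetal plasma protein, by -1.02, or -0.38 with a common upper quartile. Ahsg was low before birth, at 2456 to 3856 FPKM at Day -2, against 26008 to 27179 FPKM at Day 0 and 4975 to 7037 FPKM at Day 60. With a common upper quartile 23 were higher and 2 lower, where 8787 of all 11149 genes were called, 40.6% of them higher.

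Genes that handle the ligands of the family were also higher later for the most part. Of 14 listed, 9 were tested, with 6 higher, 2 lower and 1 not called (median 1.69), against 15.5% higher and 70.2% lower among all genes. Cyp4f14, which oxidises the side chain of vitamin E and of fatty acids, was higher later (6.03). Cyp27a1 (3.72), a sterol 27-hydroxylase that also acts on vitamin D, and Cyp2r1 (1.80), the main vitamin D 25-hydroxylase, were higher too. So was Gc, the carrier of the vitamin D products of Cyp27a1 and Cyp2r1. Mean Cyp2r1 was 0.384 FPKM before birth and 6.87 FPKM in the oldest mice, and mean Cyp27a1 was 2.23 and 221 FPKM. B2m rose (2.53), whereas Fcgrt, its partner in the receptor that rescues albumin from breakdown, differed by 0.10 (limma, adjusted p = 0.207). Ttpa, the vitamin E transfer protein, rose (1.69), and the lipoprotein receptor Scarb1 (-0.80) and the fatty acid translocase Cd36 (-0.90) fell. Fcgrt passed with a common upper quartile (0.73, limma, adjusted p = 1.51e-08). Lrp2, Cubn, Cyp27b1, Cyp24a1 and Vdr, which act on vitamin D or albumin mainly in other organs, were under the level needed for testing.

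**Figure D5:**
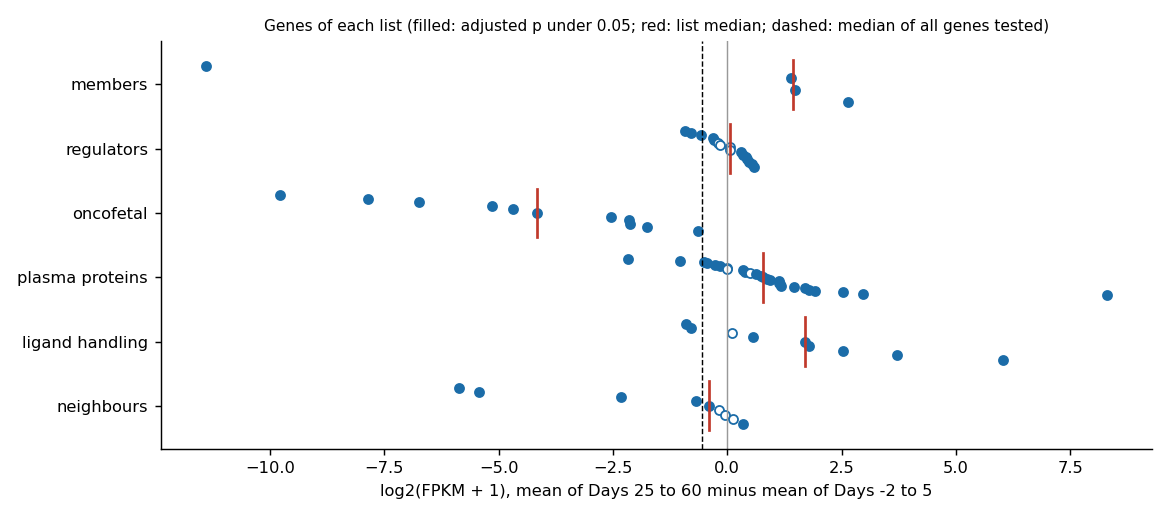
The log2(FPKM + 1) difference between the mean of Days 25 to 60 and the mean of Days -2 to 5, 1 point per tested gene, for the 4 members and 5 lists (filled for an adjusted p under 0.05, red bar for the list median, dashed line for the median of all 11149 genes, -0.54). Afp (-11.41) is the lowest point of all lists, and Alb, Afm and Gc (1.39 to 2.63) lie among the plasma proteins.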

How the data were processed

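Liver RNA from 36 mice was measured as 3 libraries at each of 12 ages. The authors mapped paired reads to NCBI37/mm9 and deposited FPKM per gene symbol, on the linear scale. The submitters' processing notes name TopHat 1.2.0 and Cufflinks 1.0.3. No scaling between libraries beyond FPKM is stated in the sources used here, so values are shares of a library and move when globin mRNA moves. Read counts were not used here, and depth was estimated, within a search range of 60 to 120 fragments in units of 1000000, from the smallest steps between low FPKM values of 1247 genes. The counting error derived from it leaves out every other source of error.

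The measure analysed was log2(FPKM + 1). A gene was tested if at least 1 age had an average of 1 FPKM or more (11149 of 21889 genes). The model was fitted in limma 3.58.1 (R 4.3.3) to all 36 mice, with 12 age means and variances that follow mean expression, and p-values were adjusted by Benjamini-Hochberg over all genes tested within each comparison. Dunnett's comparison with Day 60 within each gene, as the study's methods describe, was an alternative, as were another pseudocount (0.1), other filters and scalings, a replicate block and each mouse left out. Ratios of members, as differences of log2(FPKM + 1) averaged within each age, were compared with exact permutation tests. The fit was tested on simulated data. Other steps ran in Python 3.11.15 (numpy 2.4.6, pandas 2.3.3, scipy 1.17.1) with figures drawn in matplotlib 3.10.9.

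Genes named are the 4 members, for each the 3 genes of highest Pearson's r over age means, the 4 largest changes among called genes of each list, Zhx2 and Zbtb20, and neighbouring genes. The result for 1 gene that this rule names is not reported here. Ttr, Trf, Ahsg, Nr5a2, Fcgrt, Ttpa, Scarb1, Cd36 and the untested genes of the ligand list were named after their values were seen. The members and lists were chosen with earlier results of these data known. RefSeq promoters were found for 4 of 4 members.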

Additional observations from a re-analysis of the deposited data

How the results depend on the processing

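For the members, the differences between Days 25 to 60 and Days -2 to 5 kept their direction and stayed past the threshold under every alternative run, and with 1 mouse left out they ranged from 1.36 to 1.43 (Alb), -11.67 to -11.26 (Afp), 1.42 to 1.51 (Afm) and 2.58 to 2.68 (Gc). Counts that moved by over 1.5 times were as follows. Without a filter on low values 3 ages differed from Day 60 in Alb in place of 5 (18601 genes tested), and the cause was not tested. With a filter at 5 FPKM, 3 regulators were higher in place of 7 and 0 neighbouring genes in place of 1, with fewer of each tested. With a common upper quartile 2 regulators, 2 plasma proteins and 3 neighbouring genes were lower and 4 neighbouring genes higher, and with a common sum 3 regulators were lower. Of all 11149 genes, 8787 were called with the common upper quartile (40.6% of them higher) and 9318 with the common sum (21.1% of them higher). With the 4 libraries of other organs' transcripts left out together, an alternative chosen after seeing the data, the members' later minus earlier differences were 1.43 (Alb), -11.43 (Afp), 1.55 (Afm) and 2.68 (Gc), 5 regulators were higher in place of 7, and 5 plasma proteins lower in place of 6. With 7 left out, also chosen after seeing the data, the differences were 1.36, -11.56, 1.47 and 2.60 and 2 steps of Afp passed in place of 4. Over all alternatives, comparisons between 2 ages of a member that passed under at least 1 setting kept their side of the threshold in 2063 cases, passed in 26 where they had not, and failed in 27 where they had passed. The labels tie the replicate number to no shared litter or day. Over 198 pairs with the same number, r of deviations had a median of 0.126 and a lowest value of -0.680 and was over 0.1 in 52.5%, against a median of -0.0476 for pairs with different numbers. With the replicate number as a block, Alb rose from Day 10 to Day 15 (0.46, limma, adjusted p = 0.0352), and no other call of a member changed. Counting error at the lowest Afp value after weaning was an estimated 14.4%, while Afp in the Day 60 mice ran from 0.280 to 1.46 FPKM. Depth also limits other genes under 1 FPKM.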
